A study of Mus musculus with 5 samples.

Results

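The genes described here are the 8 major histocompatibility complex (MHC) class II genes H2-Aa, H2-Ab1, H2-Eb1, Cd74, H2-DMa, H2-DMb1, H2-DMb2 and Ciita, of 29818 genes counted in single cells of the growth plate. They were selected on measured values: UMIs (unique molecular identifiers, each marking 1 captured transcript) of the H2-DM genes had been seen in chondrocytes and those of the classical chains in blood cells. The difference in level between these cell populations is therefore given as a description, without a test. All 8 genes had UMIs in each of the 5 libraries.

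The cells came from femoral and tibial growth plate cartilage of 5 littermates, with 1 library per pup made on the BD Rhapsody HT Express system, which barcodes the RNA of single cells. Pups 1 and 2 were labelled wild type (WT) and pups 3, 4 and 5 mutant, the mutants carrying 1 conditional knock-in Trpv4 allele that encodes p.R594H and is recombined by Col2a1-Cre, a transgene selectively expressed in chondrocytes. In the study the controls could be littermates without Cre or without the conditional allele, and the labels do not say which a WT pup was. The recorded strain was C57BL/6J, and the age was postnatal day 5 in the sample labels and day 3 in the design text. By the study's methods, the Col2a1-Cre line was made on a mixed B6SJLF1 background before it was crossed to C57BL/6J, so that Cre carriers may hold SJL segments. Whether any lies at the polymorphic MHC was not tested. The counts per gene do not show which allele was read, and recombination in the blood cells was not tested.

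MHC class II molecules carry peptides from the endosomes to the cell surface, where CD4+ T cells read them. H2-Aa with H2-Ab1 forms the peptide-holding molecule of C57BL/6 mice, and Cd74, the invariant chain, escorts it and fills its groove on the way. H2-Eb1 is the beta chain of a further such molecule, whose alpha chain, H2-Ea, C57BL/6 mice are known not to make. H2-DMa with H2-DMb1 or H2-DMb2 forms the H2-DM dimer, which exchanges the remnant of Cd74 for peptide, and Ciita is the transactivator that switches on the whole set in professional antigen-presenting cells. In growth plate cartilage, resting, proliferating, prehypertrophic and hypertrophic chondrocytes follow each other in columns as the bone lengthens.

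Cells were sorted into populations by UMI counts alone. Of 82516 cells past the filters, 1235 were called Ptprc-positive (at least 2 UMIs of Ptprc, the pan-leukocyte marker CD45, and under 2% of UMIs from Col2a1). They are called blood cells here, although 2 macrophage-like clusters described below held 34.5% and 30.2% of them. Macrophages of the tissue were not told apart from circulating cells. Another 1562 cells were called Ihh-positive chondrocytes (at least 2 UMIs of Ihh, which prehypertrophic chondrocytes secrete, at least 2% Col2a1 and no Ptprc UMI). A further 38412 were called Col2a1-high chondrocytes (at least 5% Col2a1, no Ptprc and no Ihh UMI). For comparison, 21624 cells had at least 5% of UMIs from Col1a1, the collagen of tendon, perichondrium and bone, and 127 were erythroid by hemoglobin. The libraries held 117746735 to 183322632 UMIs, and the median kept cell held 6000 to 9261. Each WT pup was above every mutant-labelled pup in both measures, with medians of 9261 and 8521 against 6657, 6000 and 7016. Label and depth were therefore confounded. Depth differed between populations, with a median of 22600 to 32150 UMIs in Ihh-positive, 6675 to 10840 in Col2a1-high and 5534 to 8038 in Ptprc-positive cells. Near the limits, 35 to 105 cells per pup had 1 Ptprc UMI, 128 to 211 had 1 Ihh UMI and 972 to 1674 had 4% to 6% Col2a1. Between 18 and 59 cells per pup had both Ptprc and Col2a1 above the limits, could be doublets and entered neither gate. In pups 3 and 4, 89.8% and 88.4% of cells had a UMI of Xist, the long noncoding RNA of the inactive X chromosome, against at most 0.174% in the other pups, so that the label was partly confounded with sex. Between 19 and 28 cell barcodes per pup occurred in another pup's library too.

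Of the 8 genes, 6 lie together on chromosome 17 (GRCm38, GENCODE vM21). H2-DMa (chr17:34119541-34139101, plus strand), H2-DMb2 (chr17:34143307-34151555, plus) and H2-DMb1 (chr17:34153072-34160230, plus) come first. The classical genes H2-Ab1 (chr17:34257689-34269419, plus), H2-Aa (chr17:34282744-34287823, minus) and H2-Eb1 (chr17:34305867-34316674, plus) follow after 97458 bases. Ciita lies at chr16:10480059-10528418 and Cd74 on chromosome 18. The span of H2-DMa overlaps Brd2 on the opposite strand by 3094 bases and 3 further annotated genes, and how the counting treated strand is not given in the sources used here. H2-DMb1 and H2-DMb2 are near-copies: their transcripts of 1404 and 1424 bases were 92.8% identical over 1231 aligned bases, and 13.7% of the 100-base windows of H2-DMb1 occurred whole in H2-DMb2. Their last 300 bases were less alike, at 79.3% identity over 261 aligned bases. The split of UMIs between these 2 genes is therefore uncertain where reads fell in the shared stretches.

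RefSeq promoters (GRCm38.p6, 250 bases before to 50 after each start) matched 5 of the 8 genes by symbol, and the stretches below are shown because they hold letters of the X or Y box, through which class II genes are known to be controlled (both in H2-DMb2 and H2-Eb1, the Y letters alone in H2-Aa). The letters searched on both strands were AACNGATG for the X box and GATTGG for the Y box, and both are in capitals. They were chosen after these promoters had been read. Only exact matches were searched, so a miss does not show that a box is absent.

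H2-DMb2 (chr17:34145116-34145175, plus strand): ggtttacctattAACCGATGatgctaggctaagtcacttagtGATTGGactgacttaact

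H2-Eb1 (chr17:34305766-34305824, plus strand): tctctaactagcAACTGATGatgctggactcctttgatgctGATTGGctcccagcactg

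H2-Aa (chr17:34287855-34287912, minus strand): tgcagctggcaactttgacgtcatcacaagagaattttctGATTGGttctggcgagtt

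In H2-DMb2 the X and Y letters began 30 bases apart, with the Y letters 91 bases before the start. H2-DMb1 held the same pair 30 bases apart and 62 bases before its RefSeq start, in a stretch that GENCODE places in an exon and that is not printed. In H2-Eb1 they began 29 bases apart. H2-Aa had the Y letters alone, 49 bases before its start. Of 32851 promoters of this length, 2.32% held the X letters, 16.1% the Y letters, and 9 (0.0274%) held X followed by Y on 1 strand at 15 to 40 bases. Those 9 belonged to H2-DMb1, H2-DMb2, H2-Eb1, H2-Eb2, H2-M10.4, BC051142, Fgd4, Scgb2b20 and Sf1. Of 2 H2-DMa promoters, the one that adjoins Brd2 had 29 CG pairs, against a median of 7, and held neither set of letters. The other had the Y letters 199 bases before its start. The same letters thus stood before a gene with UMIs in chondrocytes (H2-DMb2) and before one nearly without them (H2-Eb1), as the levels below show.

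The alpha chain H2-Aa, the beta chain H2-Eb1 and the invariant chain Cd74 were counted in blood cells and hardly in chondrocytes. In Ptprc-positive cells of pups 1 to 5, H2-Aa was at 246, 534, 110, 120 and 209 CPM (UMIs of the gene per 1000000 UMIs of the population, pooled per pup). In Ihh-positive chondrocytes the same gene was at 2.01, 1.19, 0.372, 1.75 and 0.722 CPM, from 12, 13, 5, 12 and 3 UMIs. In Col2a1-high chondrocytes it lay between 1.02 and 1.86 CPM. The log2 ratio of Ptprc-positive to Ihh-positive cells was 7.54 ± 1.07 (SD, n = 5 pups, with 0.5 UMI added on each side here and below), and the smallest in any pup was 6.05.

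H2-Eb1, the other classical beta chain, was at 208, 449, 128, 151 and 188 CPM in Ptprc-positive cells. It was at 0.670 to 1.44 CPM in Ihh-positive and at 0.597 to 1.06 CPM in Col2a1-high chondrocytes, and its log2 ratio between Ptprc-positive and Ihh-positive cells was 7.60 ± 0.76. Cd74 was at 463, 970, 262, 215 and 254 CPM in Ptprc-positive cells. Ihh-positive chondrocytes held only 7, 3, 1, 2 and 3 UMIs of it, and Col2a1-high chondrocytes 0.666 to 1.86 CPM. The log2 ratio of Cd74 was 9.75 ± 1.54 against Ihh-positive and 8.42 ± 0.43 against Col2a1-high chondrocytes.

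H2-Ab1, the beta chain that pairs with H2-Aa, did not share this split. It was at 324, 708, 130, 116 and 212 CPM in Ptprc-positive cells. In Ihh-positive chondrocytes it was at 70.0, 66.3, 53.5, 88.6 and 77.01 CPM, and in Col2a1-high chondrocytes at 61.6, 56.1, 31.2, 37.5 and 51.5 CPM. Blood cells were higher in all 5 pups, by a log2 ratio of 1.76 ± 1.13 over Ihh-positive and 2.36 ± 0.77 over Col2a1-high chondrocytes, and in pup 4 the ratio to Ihh-positive cells was 0.40.

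Relative to H2-Ab1, its partner H2-Aa was thus counted far less in cartilage than in blood. For every 100 H2-Ab1 UMIs there were 75.3 to 103 H2-Aa UMIs in Ptprc-positive cells, 0.696 to 2.88 in Ihh-positive chondrocytes and 2.82 to 3.31 in Col2a1-high chondrocytes. Of the Ihh-positive cells with an H2-Ab1 UMI, 1.51% to 8% also had an H2-Aa UMI. In the Col2a1-high population this share was 3.76% to 5.24%, and in pup 1, for example, it was 80 of 1527 cells (5.24%, Wilson 95% interval 4.23% to 6.47%). In Ptprc-positive cells it was 47.2% (31.99% to 63.0%) in pup 1 and 80% (67.0% to 88.8%) in pup 2, where 36 and 50 cells had H2-Ab1. These intervals cover counting error only. The 3 mutant-labelled pups had 17, 4 and 4 such blood cells, too few to order them.

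The H2-DM genes, which edit the peptide in the groove, showed the opposite order to the classical alpha chain. H2-DMa was at 142, 74.7, 73.8, 112 and 129 CPM in Ihh-positive chondrocytes and at 63.5, 51.5, 29.8, 51.0 and 54.4 CPM in Col2a1-high chondrocytes. In Ptprc-positive cells it was at 30.8, 66.7, 21.6, 24.3 and 27.4 CPM. Ihh-positive chondrocytes were above blood cells in every pup, although pup 2 differed by only 0.16 on the log2 scale, and the mean log2 ratio of blood to Ihh-positive cells was -1.70 ± 0.88. The order holds for the gate as a whole. In the macrophage-like cluster 32, described below, H2-DMa was at 83.2, 149, 67.2, 43.03 and 55.1 CPM, which in pup 2 is above the Ihh-positive level.

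H2-DMb1 was at 146, 88.6, 75.8, 136 and 107 CPM in Ihh-positive and at 47.0, 39.6, 23.2, 46.2 and 39.1 CPM in Col2a1-high chondrocytes. In Ptprc-positive cells it was at 13.9, 38.6, 11.3, 8.67 and 14.3 CPM, with a log2 ratio to Ihh-positive cells of -2.79 ± 0.999. H2-DMb2 was at 52.7, 43.1, 36.8, 60.8 and 61.1 CPM in Ihh-positive and at 21.2, 17.3, 9.75, 20.6 and 20.8 CPM in Col2a1-high chondrocytes. In Ptprc-positive cells it was at 13.6, 14.7, 11.3, 1.73 and 10.7 CPM, with a log2 ratio of -2.43 ± 1.23. Its value in pup 4 was 1 UMI, and without this pup the ratio was -1.90. Taking the mean ratios, the 3 genes were 3.24-, 6.94- and 5.38-fold lower in Ptprc-positive than in Ihh-positive cells. Ihh-positive cells were above Ptprc-positive cells in 5 of 5 pups for all 3, as they were for 25.4% of 16389 genes. The 3 genes were selected on this contrast, so the order is a description.

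Against all Col2a1-high chondrocytes the order was weaker. The log2 ratio of blood to Col2a1-high cells was -0.62 ± 0.61 for H2-DMa, -1.29 ± 0.84 for H2-DMb1 and -0.89 ± 1.24 for H2-DMb2, and 1 pup was above 0 for H2-DMa and 1 for H2-DMb2. Without pup 4 the ratio of H2-DMb2 was -0.37. This order depended on the limit of the gate. With at least 10% of UMIs from Col2a1 in place of 5%, it turned, to 1.77 for H2-DMa, 1.23 for H2-DMb1 and 1.62 for H2-DMb2, blood cells then being higher.

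Ihh-positive were above Col2a1-high chondrocytes in 5 of 5 pups for H2-Ab1 (log2 ratio 0.61 ± 0.43), H2-DMa (1.08 ± 0.31), H2-DMb1 (1.504 ± 0.21) and H2-DMb2 (1.53 ± 0.25). Of 20993 genes with at least 20 UMIs over the 2 populations, 23.3% were above in all 5 pups, and 25.4% of 16389 genes were above in all 5 pups when Ihh-positive cells were set against Ptprc-positive cells. H2-Aa was above in 2 pups and H2-Eb1 in 3, and Cd74 was lower in all 5. The shares of genes above are given as background, since the members were selected on these levels.

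**Figure D1:**
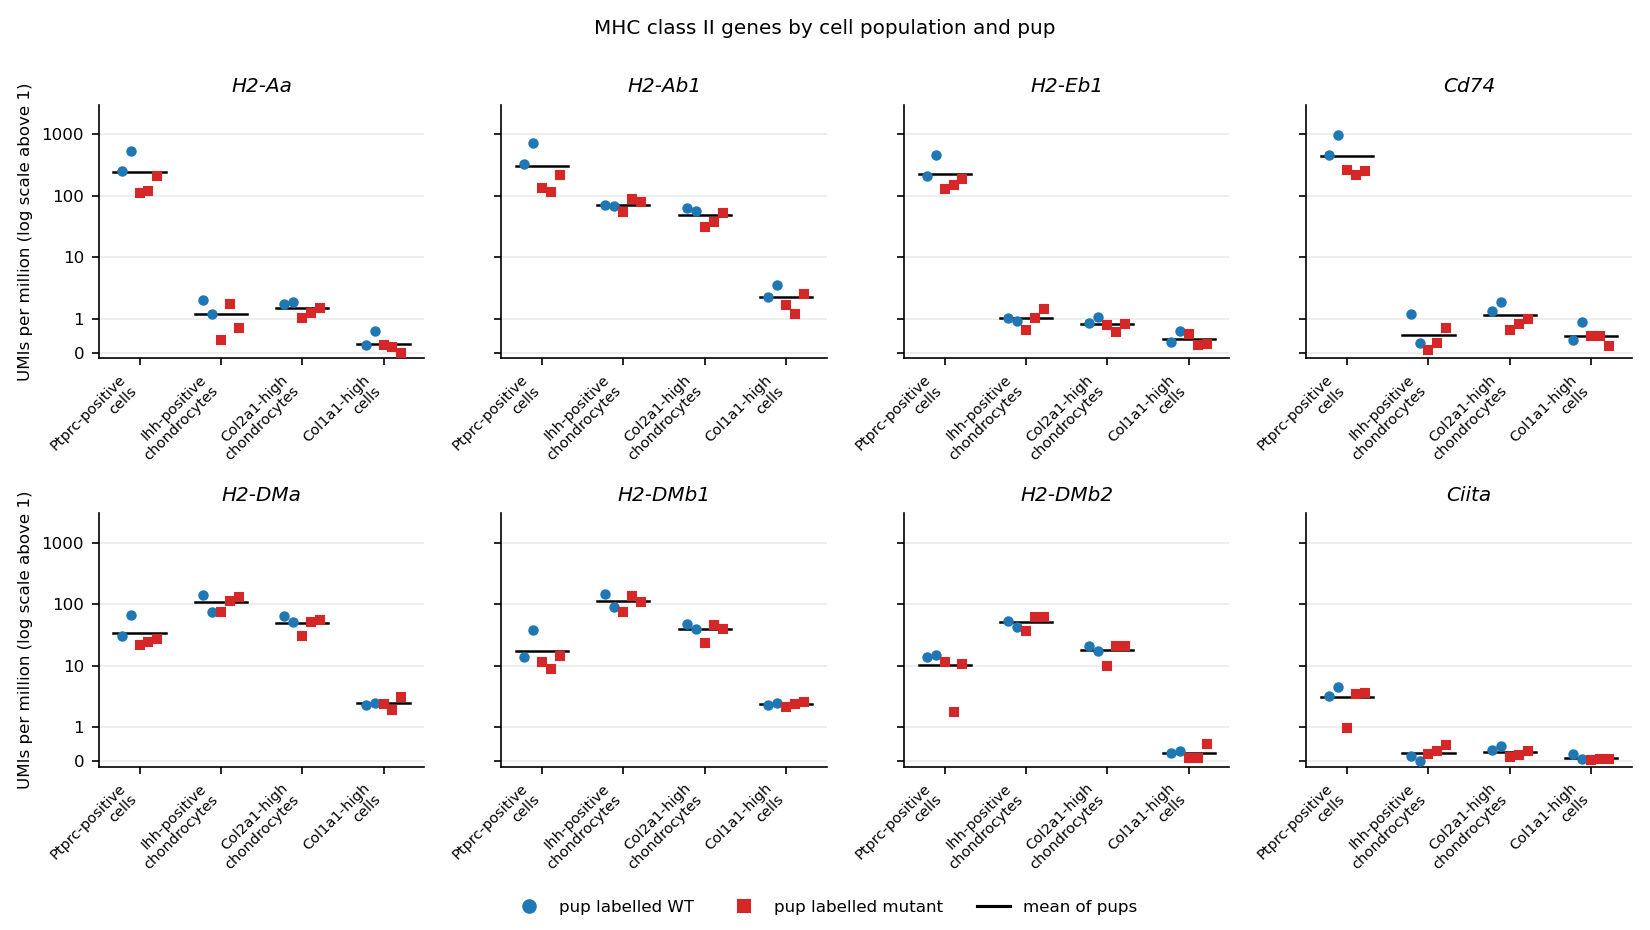
Level of each MHC class II gene (CPM, log axis above 1 and linear below) in Ptprc-positive cells, Ihh-positive and Col2a1-high chondrocytes and Col1a1-high cells, with 1 point per pup (circles WT, squares mutant-labelled) and a line at the mean of 5 pups. H2-Aa, H2-Eb1 and Cd74 sit above 100 CPM in blood cells and at 0.0745 to 2.01 CPM in the chondrocyte populations, whereas H2-Ab1 and the 3 H2-DM genes lie between 9.75 and 146 CPM there.

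Ciita, the transactivator, was low throughout. Ptprc-positive cells held 11, 16, 2, 2 and 3 UMIs of it (0.982 to 4.44 CPM), and Col2a1-high chondrocytes 31, 34, 7, 13 and 23 UMIs (0.120 to 0.438 CPM). Ihh-positive chondrocytes held 1, 0, 3, 2 and 2 UMIs. Blood cells were above Col2a1-high chondrocytes in 5 of 5 pups, with a log2 ratio of 3.65 ± 0.50. Within chondrocytes, Ciita was too rarely counted for its level to be compared with the other genes.

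Levels in other cells are given for comparison. In the Col1a1-high cells H2-DMa was at 1.92 to 3.14, H2-DMb1 at 2.10 to 2.56, H2-Ab1 at 1.19 to 3.50 and H2-Aa at 0 to 0.624 CPM. H2-Eb1 was at 0.233 to 0.624 and Cd74 at 0.192 to 0.906 CPM in these cells. All 3 of H2-Aa, H2-Eb1 and Cd74 were higher in Col2a1-high chondrocytes than in Col1a1-high cells in 5 of 5 pups, at levels under 2 CPM in both. A contribution of free RNA was not tested. The 127 erythroid cells, with a median of 2991 to 5215 UMIs across pups, held 9 UMIs of Cd74 (4 in pup 2 and 5 in pup 3) and 1 each of H2-DMb1, H2-DMb2 and Ciita. No UMI of H2-Aa, H2-Ab1, H2-Eb1 or H2-DMa was counted in them. A count of 0 allows a share of up to 2.36% of cells with a UMI at this depth, which does not limit the share that expresses the gene, and a level of up to 5.12 CPM over 586141 UMIs.

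Because Ihh-positive cells held the most UMIs, shares of cells were compared after each cell had been thinned to 3000 UMIs. This left out 60 Ptprc-positive, 3 Ihh-positive, 461 Col2a1-high and 668 Col1a1-high cells. The Ptprc-positive cells left out numbered 0, 3, 32, 16 and 9 in pups 1 to 5. The Col2a1-high cells left out numbered 0, 1, 86, 252 and 122, so the loss fell mostly on mutant-labelled pups. After thinning, H2-DMa was detected in 18.4% to 32.5% of Ihh-positive and 4.27% to 8.16% of Col2a1-high cells across pups. It was detected in 5.58% to 10.8% of Ptprc-positive and 0.618% to 0.843% of Col1a1-high cells. Without thinning the ranges were 66.3% to 85.8%, 11.1% to 19.2%, 9.68% to 18.7% and 1.12% to 1.97%. H2-Ab1 was detected in 12.7% to 22.4% of Ihh-positive, 4.43% to 8.61% of Col2a1-high and 2.60% to 10.3% of Ptprc-positive cells after thinning, and in 51.0% to 67.4%, 10.1% to 20.8% and 3.88% to 11.7% before it. H2-Aa was detected in 0% to 0.581% of Ihh-positive and 2.60% to 8.71% of Ptprc-positive cells. Blood cells thus carried H2-Ab1 at a higher level than Ihh-positive chondrocytes but in a smaller share of cells.

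The chondrocyte signal was not spread evenly over cartilage. Col2a1-high chondrocytes were divided by the share of their UMIs that came from Col2a1. H2-DMa was at 53.2 to 131 CPM across pups where Col2a1 made up 5% to 7.5%, at 31.2 to 87.1 CPM at 7.5% to 10%, at 5.50 to 20.8 CPM at 10% to 15% and at 4.57 to 6.70 CPM above 15%. H2-Ab1 went through 66.6 to 132, 22.9 to 64.6, 7.22 to 15.0 and 5.74 to 9.34 CPM over the same steps. H2-Aa lay between 0.219 and 2.72 CPM over all steps. All 3 genes were higher in the first than in the last step in every pup, H2-Aa for example at 2.58 against 0.797 CPM in pup 1.

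**Figure D2:**
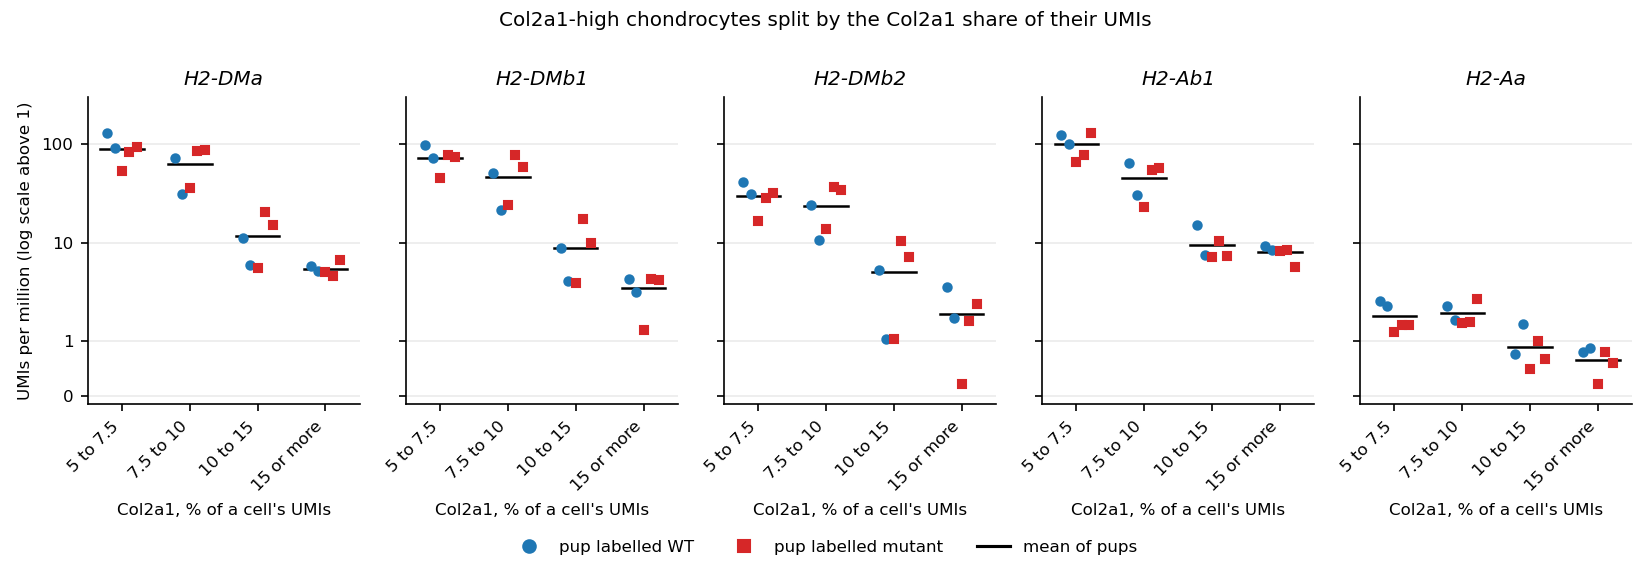
Level of the 3 H2-DM genes, H2-Ab1 and H2-Aa (CPM, log axis above 1 and linear below) in Col2a1-high chondrocytes, split by the share of a cell's UMIs from Col2a1, with 1 point per pup (circles WT, squares mutant-labelled) and a line at the mean. H2-DMa and H2-Ab1 are highest at 5% to 7.5% Col2a1, except H2-DMa in pup 4, and lie under 10 CPM above 15%, and H2-Aa is low at every step.

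Clustering of all cells gave 49 clusters, 4 of which (clusters 6, 18, 20 and 24) held most of the chondrocyte signal. They made up 15.2% of the Col2a1-high cells and 28.1% of their UMIs but 88.1% of the H2-DM UMIs and 83.2% of the H2-Ab1 UMIs. In the Ihh-positive population they made up 79.8% of cells and 91.0% of H2-DM UMIs. The members and the listed genes were kept out of the genes that the clustering used. The levels by cluster remain a description, since the members were selected on measured levels.

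Cluster 18 had the highest level of H2-Ab1 among chondrocytes, at 426, 283, 382, 388 and 357 CPM in pups 1 to 5. It was resting chondrocyte-like by its markers, with prehypertrophic chondrocyte as the name ranked second. It was led by the histone gene H2ac6, Sfrp5 and H2-Ab1 itself. H2-DMa was at 234, 180, 165, 224 and 169 CPM there, and H2-Aa at 2.65 to 3.75 CPM. In the prehypertrophic-like cluster 6, led by Xlr3c and H2-DMa, H2-DMa was at 186, 110, 101.4, 182 and 174 CPM and H2-Ab1 at 40.2 to 94.5 CPM. Cluster 20, also prehypertrophic-like and led by Smpd3, Panx3 and Ihh, held H2-DMa at 90.8 to 220 CPM and H2-Ab1 at 70.6 to 125 CPM. The proliferating-like cluster 24, led by Ccnb1, had H2-DMa at 93.1 to 160 and H2-Ab1 at 119 to 187 CPM. Ptprc was at 0.287 to 0.656 CPM in these 4 clusters, against 618 CPM in cluster 32, the blood cluster with the most class II UMIs.

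Elsewhere in cartilage the pair came apart or was low. Cluster 26, resting chondrocyte-like and led by Arc and Plet1, had H2-Ab1 at 99.5 CPM but H2-DMa at 24.4 CPM, though 465 and 458 of its 1179 cells came from pups 1 and 2. Cluster 37, led by Col10a1 and Ihh and left without a name, had H2-DMa at 33.5 and H2-Ab1 at 36.0 CPM. The 3 largest clusters (1, 2 and 3), resting or articular chondrocyte-like, had H2-DMa at 6.18 to 7.88 and H2-Ab1 at 2.90 to 9.61 CPM.

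**Figure D3:**
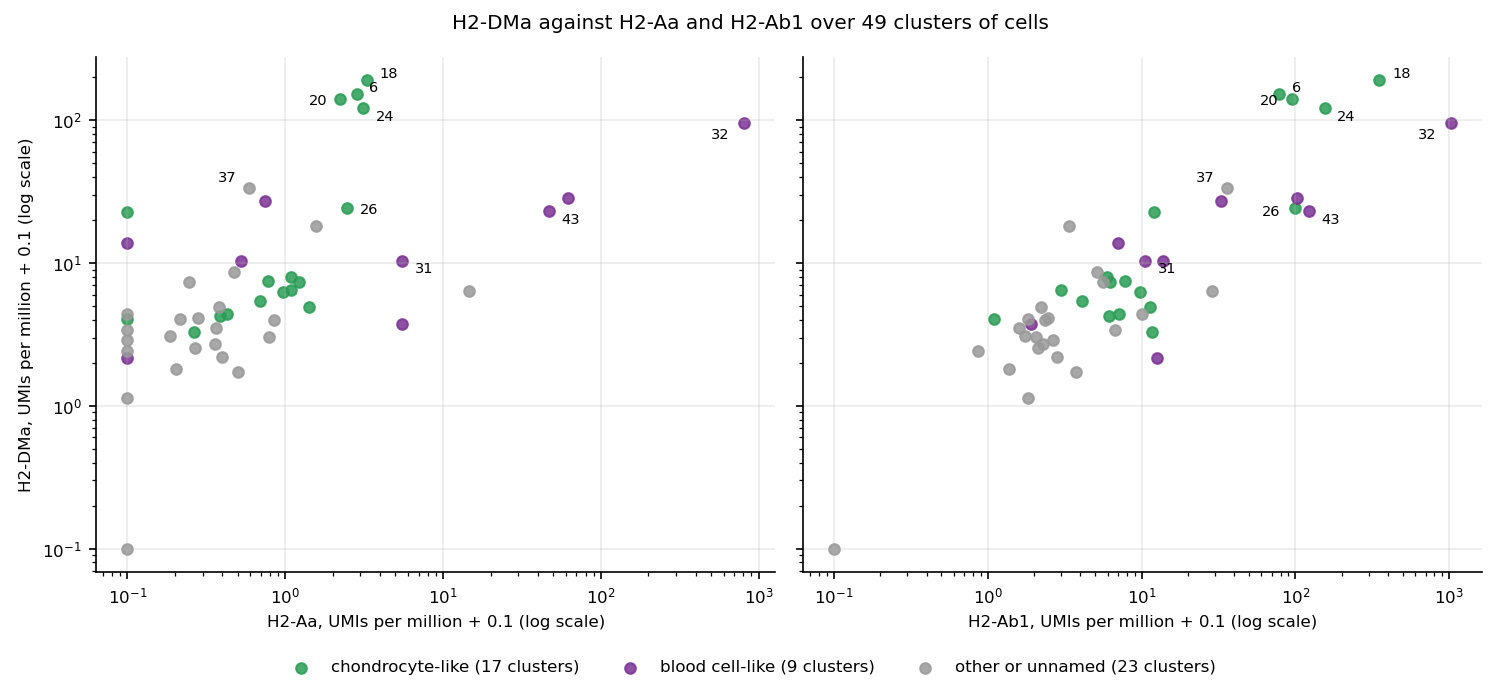
H2-DMa against H2-Aa and against H2-Ab1 (CPM + 0.1, log axes), with 1 point for each of the 49 clusters, coloured by kind of cell. The 4 clusters rich in H2-DMa (122 to 190 CPM) have H2-Aa under 3.2 CPM, and the macrophage-like cluster 32 has H2-Aa at 813 CPM with H2-DMa at 95.8 CPM.

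Across the 49 clusters and 10101 genes of at least 5 CPM, the genes most like H2-DMa by Pearson r of log2(CPM + 1) were H2-DMb2 (0.938), H2-DMb1 (0.927), Apela (0.897), Smim31 (0.878) and H2-Ab1 (0.870). Those most like H2-Ab1 were H2-DMa (0.870), H2-DMb2 (0.844), H2-DMb1 (0.815), Apela (0.784) and Septin3 (0.764). Apela encodes a secreted peptide ligand of the apelin receptor. The clusters share libraries and differ in depth, and the 2 H2-DMb genes may share UMIs, so that these r are descriptions.

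Brd2 and the named genes between H2-DMb1 and H2-Ab1 did not follow the H2-DM genes. Brd2, which encodes a bromodomain protein and overlaps H2-DMa, was lower in Ihh-positive than in Col2a1-high chondrocytes in 5 of 5 pups (log2 ratio -0.59 ± 0.04), where H2-DMa was higher. Between H2-DMb1 and H2-Ab1 lie the class I antigen processing genes Psmb9, Tap1, Psmb8 and Tap2 and the class II gene H2-Ob. In Ihh-positive chondrocytes Psmb9 was at a mean of 0.160, Tap1 at 2.14, Tap2 at 0.487 and H2-Ob at 0.0481 CPM, and Psmb8 had 0 UMIs. In Ptprc-positive cells the same 5 genes were at 14.9, 43.6, 14.8, 5.06 and 59.7 CPM. The genes counted in chondrocytes thus stood on both sides of the 97458 bases between H2-DMb1 and H2-Ab1, whose named genes were hardly counted there.

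**Figure D4:**
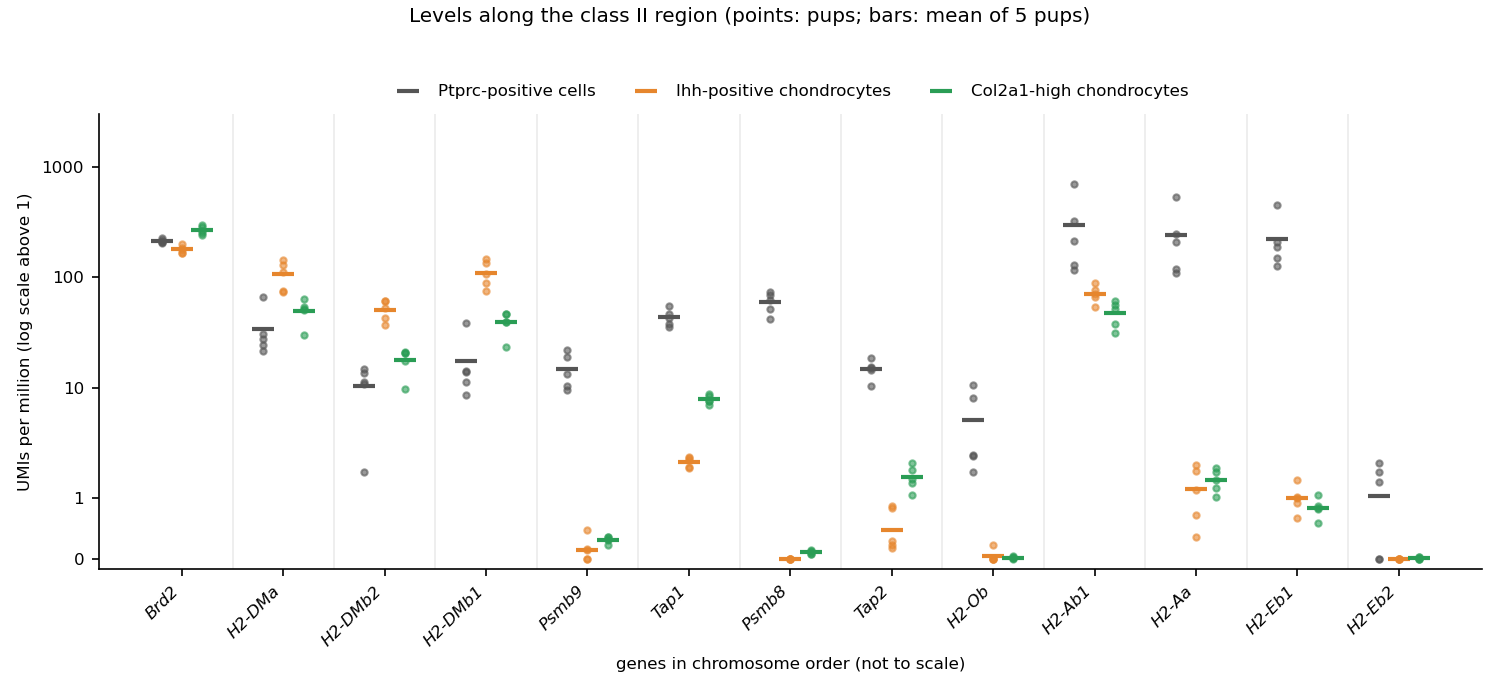
Level (CPM, log axis above 1 and linear below; points are pups and bars the mean of 5) of the genes from Brd2 to H2-Eb2 in their order on chromosome 17, in Ptprc-positive cells and in both chondrocyte populations. Chondrocytes are high at Brd2, the H2-DM genes and H2-Ab1 and low at the genes between and after them.

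The rest of the presentation machinery was described from lists, each by the number of its genes that were higher or lower in Ihh-positive chondrocytes than in Ptprc-positive cells in all 5 pups. Of 16389 genes, 25.4% were higher and 34.4% lower in this way. Of 11 genes of class II peptide handling and costimulation, 0 were higher and 10 lower. The lysosomal proteases Ctsb and Ctsl were at 199 ± 18.2 and 41.3 ± 6.67 CPM (SD, n = 5) in Ihh-positive and 3889 ± 1288 and 237 ± 73.2 CPM in Ptprc-positive cells. Ctss, the protease that trims Cd74, was at 0.938 and 1119 CPM, and was named after its values were seen. Of 8 genes for transcription of class II genes, 1 was higher (Rfxap) and 5 were lower, among them Ciita. Nfyc was at 59.3 ± 4.37 and 59.5 ± 7.30 CPM and Creb1 at 20.7 ± 1.87 and 63.1 ± 10.4 CPM. Of the other class II genes H2-Oa, H2-Ob and H2-Eb2, 0 were higher and 1 was lower (H2-Ob), and H2-Eb2 was at 0 CPM in Ihh-positive cells.

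Of 15 genes of class I presentation, 3 were higher (H2-Q7, Calr and Pdia3) and 12 lower, beside the same 25.4% and 34.4% of all genes. Calr and Pdia3, general chaperones of the endoplasmic reticulum, were at 1502 ± 103 and 1060 ± 119 CPM in Ihh-positive and at 948 ± 120 and 697 ± 130 CPM in Ptprc-positive cells. Of 14 genes of the interferon gamma response, the pathway that induces Ciita in many cells, 1 was higher (Socs1) and 11 were lower. Jak1 was at 52.5 ± 4.21 and 250 ± 29.8 CPM and Irf1 at 26.1 ± 6.74 and 108 ± 42.9 CPM. Socs1, at 32.2 ± 3.14 CPM in Ihh-positive and 12.1 ± 3.57 CPM in Ptprc-positive cells, encodes an inhibitor of this pathway. Against Col2a1-high chondrocytes, 5 of the 15 class I genes were higher in Ihh-positive cells in all 5 pups, and 7 were lower. The 5 were H2-K1, H2-Q7, Psmb10, Calr and Pdia3. Of 20993 genes, 23.3% were higher in this way, and the share lower was not counted. H2-K1, named after its values were seen, had a log2 ratio of 0.88 ± 0.15 there.

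In blood the classical genes sat in few cells. Between 67.8% and 84.5% of Ptprc-positive cells had no UMI of H2-Aa, H2-Ab1, H2-Eb1 or Cd74, and the 10% of cells with the most held 96.4% to 99.2% of these UMIs. Cells with at least 10 of them numbered 18, 39, 11, 4 and 3 in pups 1 to 5. Cluster 32 held 34.5% of the gated cells but 88.7% of the classical UMIs and 76.6% of the H2-DM UMIs. It was macrophage-like by its markers, with dendritic cell as the name ranked second, and was led by Cd74, Mpeg1 and Lyz2. Gated cells inside it had H2-Aa at 991 and H2-DMa at 111 CPM, against 44.7 and 13.4 CPM outside it, with all pups pooled. Cluster 31, macrophage-like too but led by Mrc1, Pf4 and C1qc, held 30.2% of the gated cells and 1.85% of the classical UMIs. Its H2-Aa was at 36.5 CPM in pup 1 and at 0 to 1.35 CPM in the other pups, and its Cd74 at 99.5 and 16.9 to 48.2 CPM. The granulocyte-like clusters 40 and 42 and the T or NK cell-like cluster 45 held 12.4%, 7.85% and 5.91% of the gated cells and 9, 12 and 8 classical UMIs. The B lineage-like cluster 43 held 3.24% of the cells and 1.73% of the classical UMIs. The erythroid-like cluster 36 held only 13 gated cells but 5.87% of the classical UMIs, and its H2-Aa was at 116 CPM in pup 2 and at 0 to 7.67 CPM in the others. This cluster was mixed, with 120 of its 391 cells in the Col2a1-high gate, and the cells of the erythroid gate held no H2-Aa UMI. Whether it holds doublets was not tested. Within the gate, then, most H2-DM UMIs lay in the cluster that held most classical UMIs.

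The comparison by genotype label asked whether the same genes differed between the pups labelled mutant and WT. In Ptprc-positive cells edgeR called 0 of 10880 genes (0%). An unadjusted p under 0.05 was found for 535 genes, under 5% of those tested, and DESeq2 called 14. Cd74 was lower in the mutant-labelled pups by a log2 fold change of -1.54 (SE 0.33, edgeR adjusted p = 0.884), H2-Ab1 by -1.74 (SE 0.40, adjusted p = 0.884), H2-Aa by -1.41 (SE 0.40, adjusted p = 0.885) and H2-Eb1 by -1.07 (SE 0.35, adjusted p = 0.885). The fold changes were -0.997 for H2-DMa, -1.17 for H2-DMb1 and -0.65 for H2-DMb2. All 3 mutant-labelled pups were below both WT pups for 6 of the 8 genes, a pattern that 11.5% of all genes showed in this population, and 0 of the 8 had all 3 above, as 9.38% of all genes had. The exceptions were H2-DMb1 and Ciita, for each of which pup 1 lay below pup 5.

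Pup 2 had the highest blood level of all 8 genes and pup 1 the second highest of the classical ones. Leaving out 1 of the 2 WT pups assumes that the other varies like the mutant-labelled ones. Without pup 1, the log2 fold change of Cd74 was -2.003, of H2-Ab1 -2.23 and of H2-Eb1 -1.55, and without pup 2 that of Cd74 was -0.85. The other values without pup 2 were closer to 0 than with all pups in. They were -1.015 for H2-Ab1, -0.69 for H2-Aa, -0.36 for H2-Eb1, -0.29 for H2-DMa, -0.19 for H2-DMb1 and -0.52 for H2-DMb2. With any 1 pup left out, the range was -1.89 to -0.69 for H2-Aa, -1.49 to -0.29 for H2-DMa, -1.74 to -0.19 for H2-DMb1 and -1.045 to -0.32 for H2-DMb2 (the last without pup 4). With all pups in, DESeq2 called Cd74 (adjusted p = 0.0333) and H2-Ab1 (0.0412), and edgeR without a filter on low counts called Cd74 (-1.59, adjusted p = 0.00303). Without pups 3 and 4, the mutant-labelled pups with Xist, the fold change of Cd74 was -1.49 and that of H2-Ab1 -1.28. That fit has 1 mutant-labelled pup and takes its spread from the 2 WT pups, so its edgeR adjusted p of 0.999 for both says little. Under all 12 settings run, the 7 genes tested in this population stayed below 0.

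**Figure D5:**
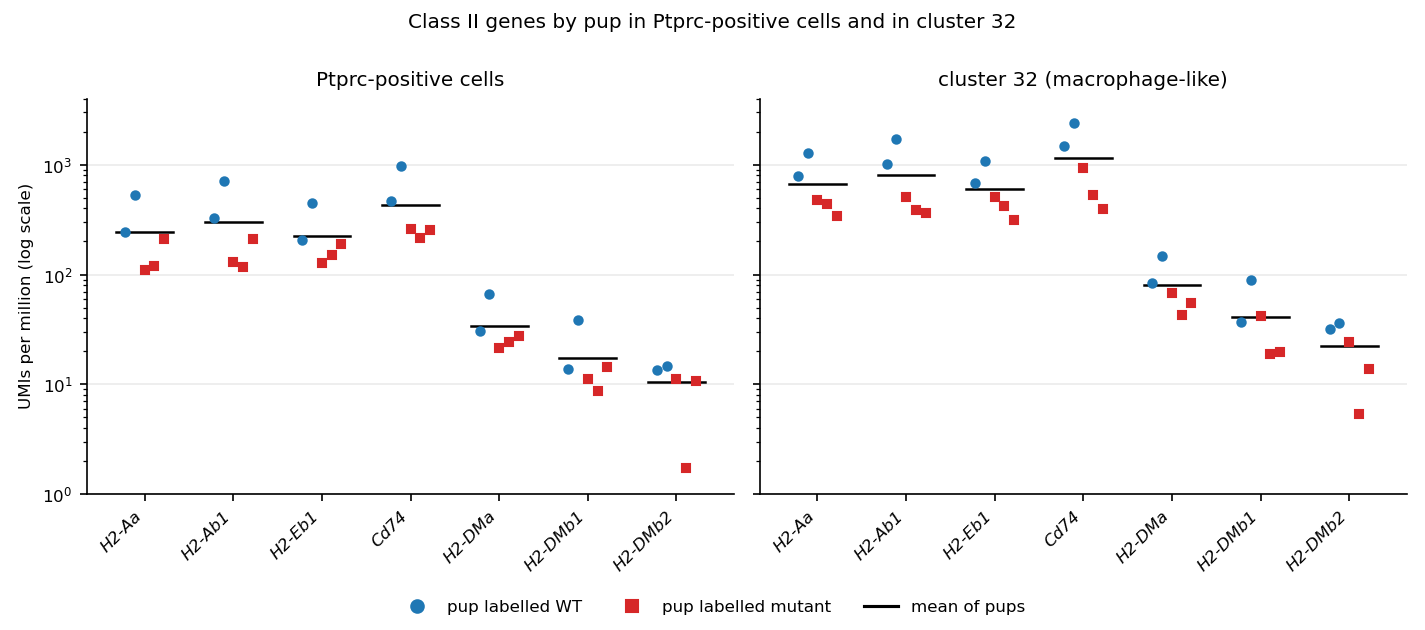
Level of 7 MHC class II genes, Ciita left out (CPM, log axis), in Ptprc-positive cells and in cluster 32, with 1 point per pup (circles WT, squares mutant-labelled) and a line at the mean. In both panels the 2 WT pups lie above the 3 mutant-labelled pups for every gene drawn except H2-DMb1.

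The blood gate took a smaller share of the cells in each mutant-labelled pup than in either WT pup. Ptprc-positive cells made up 2.17% (Wilson 95% interval 1.95% to 2.41%) and 2.58% (2.35% to 2.84%) of cells in pups 1 and 2. They made up 1.48% (1.32% to 1.66%), 0.520% (0.425% to 0.637%) and 0.746% (0.615% to 0.903%) in pups 3, 4 and 5. The difference of -1.46 percentage points had an exact 2-sided permutation p of 0.1, the smallest that 2 against 3 pups allow (0.2 after adjustment over 2 shares). The WT pups were also sequenced deeper. With cells thinned to 3000 UMIs and a gate of 1 Ptprc UMI the difference was -1.30 percentage points (exact permutation p = 0.1). That setting left out cells under 3000 UMIs, keeping all 15121 cells of pup 1 but 16725 of 17887 in pup 4. A gate of 1 Ptprc UMI without thinning gave -1.72 percentage points, with an exact permutation p of 0.2. Cluster 32 made up 31.7%, 36.0%, 31.1%, 32.3% and 48.5% of the gated cells of pups 1 to 5, and cluster 31 made up 12.5%, 33.6%, 41.0%, 48.4% and 26.2%. Both shares overlapped between the labels. Pup 1 stood apart in its blood cells, with 22.3% of the gate in the granulocyte-like cluster 42 and 8.23% in the B lineage-like cluster 43, against 2.10% to 3.53% and 0.935% to 2.15% in the other pups. Inside cluster 32, Cd74 was at 1478, 2373, 931, 524 and 394 CPM and H2-Ab1 at 1006, 1719, 513, 387 and 362 CPM, so that the mutant-labelled pups were lower for both genes within this cluster too. These levels rest on few cells. Gated cells of the cluster with at least 10 classical UMIs numbered 12, 30, 7, 3 and 3 in pups 1 to 5. The mutant-labelled pups were all below the WT pups for 6 of the 8 genes there, where 12.8% of 10000 genes with at least 20 UMIs were, and all above for 0, where 9.4% were. The part of cell composition in these values was not tested.

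In all cells pooled, edgeR called 0 of 21024 genes (0%, with 1169 at an unadjusted p under 0.05 and 42 by DESeq2). Cd74 had a log2 fold change of -2.21 (SE 0.41), H2-Aa of -1.87 (SE 0.26) and H2-Eb1 of -1.70 (SE 0.32), each with an edgeR adjusted p of 0.841, and DESeq2 called these 3 genes (adjusted p = 0.000163, 9.85e-07 and 0.000847). H2-Ab1 was at -0.48, from -0.77 without pup 5 to -0.28 without pup 3, and at -0.031 without pups 3 and 4. The H2-DM genes were between -0.13 and 0.04. In pooled cells, fewer blood cells and less RNA per blood cell cannot be told apart. Below-WT values in all 3 mutant-labelled pups were found for 5 of the 8 genes (all but the H2-DM genes), against 19.8% of all genes, and above-WT values for 0, against 3.84%.

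No gene was called by edgeR in chondrocytes either. In Col2a1-high chondrocytes edgeR called 0 of 18493 genes (0%, with 1439 at an unadjusted p under 0.05 and 72 by DESeq2), and H2-Ab1 had a log2 fold change of -0.48 (SE 0.20, edgeR adjusted p = 0.640). Without pup 5 it was -0.69, without pup 3 -0.31, and without both pups 3 and 4 -0.13. H2-DMa was at -0.27 (SE 0.28), H2-DMb1 at -0.18 (SE 0.31) and H2-DMb2 at -0.09 (SE 0.36). The mutant-labelled pups were all below the WT pups for 5 of the 8 genes (H2-Ab1, and H2-Aa, H2-Eb1, Cd74 and Ciita at under 2 CPM), where 20.2% of all genes were, and above for 0, where 5.99% were. Pup 3 was the lowest for each H2-DM gene. In Ihh-positive chondrocytes edgeR called 0 of 12393 genes (0%, with 338, under 5% of them, at an unadjusted p under 0.05 and 0 by DESeq2). The fold changes there were 0.11 (SE 0.21) for H2-Ab1, -0.03 (SE 0.37) for H2-DMa, -0.12 (SE 0.32) for H2-DMb1 and 0.15 (SE 0.24) for H2-DMb2, and 0 of the 8 genes lay wholly below WT, against 11.1% of all genes. Ciita alone, at 0 to 3 UMIs a pup, lay wholly above, against 6.99% of all genes. Ihh-positive chondrocytes made up 1.30%, 2.23%, 2.72%, 1.70% and 1.25% of cells in pups 1 to 5, a difference of 0.12 percentage points with an exact 2-sided permutation p of 1. These p-values measure the spread between pups of 1 litter.

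None of the listed genes passed the edgeR threshold by label in any of the 4 populations. In Ptprc-positive cells the median log2 fold change was 0.35 over the 11 genes of peptide handling, 0.09 over the 15 class I genes and 0.06 over the 13 interferon gamma genes tested, against -0.02 over all genes tested. The 4 classical genes had a median of -1.47 there and the 3 H2-DM genes of -0.997. These lists were chosen with earlier results of these data known, and their counts are a description.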

How the data were processed

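Growth plate cells of 5 littermates, chondrocytes among them, were profiled as 1 BD Rhapsody library per pup. The authors deposited raw UMI counts per gene and cell, made by an initial processing pipeline whose version is not given in the sources used here, without normalization, and their processing notes name the build mm10. The features carry gene symbols alone, and sequence features were matched by symbol. Following the authors' limits, cells were kept at 200 to 6000 genes and at most 10% mitochondrial UMIs, and no doublet caller was run. Counting error and the number of pups limit the precision, and the range of UMI totals over pups stands in the report.

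The cells were gated by UMI counts, and counts were summed per pup and population. The mutant and WT labels were compared with edgeR 4.0.16 (quasi-likelihood test with robust estimation, TMM scaling and the filterByExpr filter; p adjusted by Benjamini-Hochberg over all genes tested, threshold 0.05) in R 4.3.3, and shares of cells by exact 2-sided permutation. Standard errors are those of the log2 fold changes. Of these tests, the edgeR test alone was run on simulated data. Clusters were made with scikit-learn 1.9.0 and leidenalg 0.10.2 (Pearson residuals with theta 100, 3000 variable genes, 50 components, 20 neighbours, resolution 1.5) under Python 3.11.15 and named from marker lists. Chondrocyte names were withheld from clusters under 15000 CPM of Col2a1, a limit set after the clusters were seen.

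Alternatives were DESeq2 1.42.0, RLE size factors, no filter on low counts, a mitochondrial limit of 20%, gates of 1 UMI or 10% Col2a1, each pup left out, and pups 3 and 4 left out. The genes named are the 8 members, the gating genes, the 2 highest genes of each list, the 5 genes most like H2-DMa and H2-Ab1, and neighbours on the chromosome. Any other gene was picked with its values known. The members and lists were chosen with earlier results of these data known.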

Additional observations from a re-analysis of the deposited data

How the results depend on the processing

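With 2 WT and 3 mutant-labelled pups, no gene passed the edgeR threshold in any population, and this count moved with the choice of tool, filter and pups. DESeq2 called 42 genes in all cells, 14 in Ptprc-positive cells and 72 in Col2a1-high chondrocytes. Without a filter on low counts edgeR called 15 genes in Ptprc-positive cells, 2 in Col2a1-high and 21 in Ihh-positive chondrocytes. Leaving out 1 pup gave 0 to 6 genes in all cells, 0 to 971 in Ptprc-positive cells (971 without pup 2), 0 to 25 in Col2a1-high and 0 to 9 in Ihh-positive chondrocytes. Without pups 3 and 4 the count was 0 in each, from a fit with 1 mutant-labelled pup that says little. The cause of these changes was not tested.

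The log2 fold changes of the H2-DM genes in chondrocytes changed sign. With a gate of 10% Col2a1 they were 0.59 for H2-DMa, 0.56 for H2-DMb1 and 0.70 for H2-DMb2 in Col2a1-high chondrocytes. Without pups 3 and 4, H2-DMb2 was at 0.17 there, H2-DMa at 0.28 in Ihh-positive chondrocytes, and H2-DMa and H2-DMb1 at 0.25 and 0.12 in all cells. With a gate of 1 Ihh UMI, H2-Ab1 was at -0.015 in Ihh-positive chondrocytes. Leaving out 1 pup gave -0.36 to 0.14 for H2-DMa, -0.25 to 0.22 for H2-DMb1 and -0.19 to 0.33 for H2-DMb2 in all cells. In Col2a1-high chondrocytes it gave -0.42 to 0.074 for H2-DMb1 and -0.28 to 0.19 for H2-DMb2. In Ihh-positive chondrocytes it gave -0.060 to 0.31 for H2-Ab1, -0.44 to 0.52 for H2-DMa and -0.45 to 0.30 for H2-DMb1. The difference in the share of Ihh-positive chondrocytes ran from -0.34 to 0.58 percentage points with 1 pup left out, and that of Ptprc-positive cells from -1.74 to -1.25.

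A gate of 10% Col2a1 moved the level contrasts. Blood over Col2a1-high cells was then at log2 8.0 for H2-Aa, 4.74 for H2-Ab1, 1.77 for H2-DMa, 1.23 for H2-DMb1 and 1.62 for H2-DMb2, and Ihh-positive over Col2a1-high cells at 2.98 for H2-Ab1, 3.47 for H2-DMa, 4.02 for H2-DMb1 and 4.05 for H2-DMb2. No paired analysis was possible because the replicate numbers were given in accession order and pair no pups.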
